A study of Mus musculus and Homo sapiens with 22 samples.

Results

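Imprinted genes are transcribed from 1 parental allele, and 35 of them were followed here through the RNA-seq and miCLIP2 data of mouse embryonic stem cells (mESCs) and mouse heart. The list is by name and by known imprinting, it was drawn up with earlier results of these data known, and its genes are 35 of the 56196 genes listed in the count files. By the allele known to be expressed, 12 are maternal, 22 are paternal, and Gnas gives transcripts from either or both alleles. Of the 35 genes, 25 lie in 8 clusters (H19-Igf2, Igf2r-Airn, Kcnq1ot1, Dlk1-Dio3, Peg3, Peg10-Sgce, Mest-Copg2 and Snrpn-Ube3a), and 10 were taken singly.

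Imprints are DNA methylation marks placed in the egg or the sperm at imprinting control regions and kept through the divisions of the early embryo. In many clusters, the control region governs a long noncoding RNA or an insulator, so that protein-coding genes on either side are read from opposite parents. The products of imprinted genes are best known for their roles in growth, placenta, metabolism and behaviour, and the marks are known to be lost or gained easily in cultured mESCs. N6-methyladenosine (m6A) is a mark on RNA, not on DNA, and is written on mRNA mainly by the methyltransferase Mettl3 within DRACH pentamers.

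Poly(A)+ RNA of 3 wild-type (WT) and 3 Mettl3 knockout (KO) mESC cultures was sequenced, giving 22746733 to 24714987 gene counts per WT library and 25051322 to 27254245 per KO library. Both kinds of cells came from an earlier study and were grown in serum and LIF. The sources used here give neither the number of KO clones nor the sex of the lines, and nothing says that the replicates were separate clones. miCLIP2 crosslinks an anti-m6A antibody to RNA, and the classifier m6Aboost scored the resulting peaks to give 1 list of 25456 predicted sites for the WT mESCs. Purchased RNA of mouse heart, of unstated strain, age and sex, gave lists from 1 library each, with 46421 sites from the 1 µg input and fewer from inputs titled 300, 100 and 50 (in µg by the titles and in ng by the study's methods).

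Mettl3 itself had 560, 698 and 612 counts in the WT libraries and 462, 669 and 457 in the KO libraries. The difference of -0.50 ± 0.14 (log2, SE) missed the threshold in edgeR's quasi-likelihood test (adjusted p = 0.0134), and blocking by replicate number brought it past (adjusted p = 0.00281), so that transcript level alone is a weak check of the labels. All 8 pluripotency markers were abundant in both genotypes, none falling below 2510 counts in a library, but Tdgf1 (log2 fold change -1.98 ± 0.18) and Dppa5a (-1.69 ± 0.14) were lower in KO cells, and the 8 summed to 4309 to 4613 counts per 1000000 gene counts (CPM) in the WT and 3110 to 3180 CPM in the KO libraries. Fibroblast markers were examined because mESCs are often grown on feeder fibroblasts. Of 12, 7 were too low to test (at most 12 counts in any library), and Fbn1 and Thy1, 2 of the 5 tested, were higher in the KO libraries. With the replicate block 4 of the 5 were called, all higher, Twist1 (adjusted p = 0.000614) and Mmp2 (adjusted p = 0.00145) being added. Of all tested genes, 29.7% were called without the block and 43.5% with it, in either direction. Mmp2 was the most abundant, with 270 to 1100 counts, and Col1a1 had 17 to 36 counts in the WT and 13 to 23 in the KO libraries. The 12 fibroblast markers summed to 18.9 to 36.3 CPM in the WT and 51.0 to 63.1 CPM in the KO libraries, and their part in the results was not tested. The 4 genes examined on the Y chromosome had 0 to 2 counts in the WT libraries and 774 to 1983 in the KO libraries, so the 2 lines differ in more than Mettl3, and the knockout and the line cannot be told apart in any comparison below. In these bulk samples, fewer cells of a type and less RNA per cell cannot be told apart either, and the counts do not separate the parental alleles.

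Predicted m6A sites fell in exons of 10 of the 35 genes in WT mESCs and of 9 in the 1 µg heart list. Shown here are the 19 positions called in both mESCs and that heart list, because they recur in both sources, and the highest-scoring mESC site of Peg10 and Zdbf2, which had no site in heart. The 21 windows of 21 nt are written 5′ to 3′ on the RNA strand from the mouse genome (GRCm38), and capitals mark the pentamer with the predicted m6A at its centre.
Igf2r site a (chr17:12683288-12683308, minus strand): ctatttatTGACTttgacaat
Igf2r site b (chr17:12683595-12683615, minus strand): ctttaacaAAACTgcttcaaa
Igf2r site c (chr17:12683637-12683657, minus strand): accaaataAGACTtcagctcg
Igf2r site d (chr17:12683953-12683973, minus strand): gacgaccaGGACAgtgaggat
Peg3 site a (chr7:6704314-6704334, minus strand): gtcgagaaAAACTgtatttcc
Peg3 site b (chr7:6705461-6705481, minus strand): ccaggttgGAACTgacatcca
Peg3 site c (chr7:6707300-6707320, minus strand): gaacgcagGGACTctttcagt
Peg3 site d (chr7:6707350-6707370, minus strand): cacatcaaAGACTttcactct
Peg3 site e (chr7:6707364-6707384, minus strand): tacataccGGACTtcacatca
Peg3 site f (chr7:6708928-6708948, minus strand): gaatgccaGGACTgtgggctg
Peg3 site g (chr7:6710059-6710079, minus strand): gaatacaaGGACTctatcatc
Peg10 site a (chr6:4755543-4755563, plus strand): agaatcaaAGACTggccagtg
Ube3a site a (chr7:59229034-59229054, plus strand): cccactgtGGACAgatcgcga
Ube3a site b (chr7:59229205-59229225, plus strand): ggcgacaaGGACCagtgaggc
Ube3a site c (chr7:59276356-59276376, plus strand): ctcaaggaAAACTgattaggc
Ube3a site d (chr7:59276700-59276720, plus strand): aaaactctAGACTgtcgaaaa
Ube3a site e (chr7:59276935-59276955, plus strand): tagttcaaGGACAgcagttga
Grb10 site a (chr11:11933296-11933316, minus strand): tagttattGGACTtcacaaag
Grb10 site b (chr11:11933355-11933375, minus strand): ccacccaaGGACTcagaacaa
Zdbf2 site a (chr1:63304399-63304419, plus strand): ggggatatGAACTgtgagtct
Zrsr1 site a (chr11:22974269-22974289, plus strand): tctggtaaAAACTcagacagg

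GGACT was the most frequent pentamer of the windows, at 6 of 21, followed by AAACT and AGACT at 4 each. Of the 19 shared positions, 10 lay in 3′ UTRs, 7 in coding sequence and 2 in the 5′ UTR, both of these in Ube3a.

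Mettl3 KO cells differed from WT cells at many imprinted genes, in both directions, and in the Dlk1-Dio3 and Snrpn-Ube3a clusters within the same cluster. H19, Magel2, Phlda2, Dio3, Ndn, Cdkn1c and Gnas were higher in KO cells, and Nnat, Meg3, Mirg, Plagl1, Sfmbt2, Slc38a4, Zrsr1 and Snrpn were lower. These 15 calls were made among the 30 of 35 genes with enough counts to test (50.0%), where 29.7% of all 15731 tested genes were called at an adjusted p of at most 0.01. Higher calls took 7 of the 30 genes, beside 17.1% of all genes, and lower calls took 8 of the 30, beside 12.6% of all genes. Magel2, with 2 to 7 counts in the WT libraries, had enough counts to test only through its KO libraries, where it is high. Its call is therefore no support for these counts. Requiring at least 10 counts in every library removed Magel2 and left 14 calls among 29 genes. The median log2 fold change of the 30 genes was -0.23, beside -0.02 for all genes.

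With the replicate number as a block, 19 of the 30 genes were called, beside 43.5% of all genes, and Igf2r and Peg10 joined the higher genes and Copg2 and Impact the lower ones. The 5 untested genes were Igf2, Airn, Dlk1, Rian and Rtl1.

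**Figure D1:**
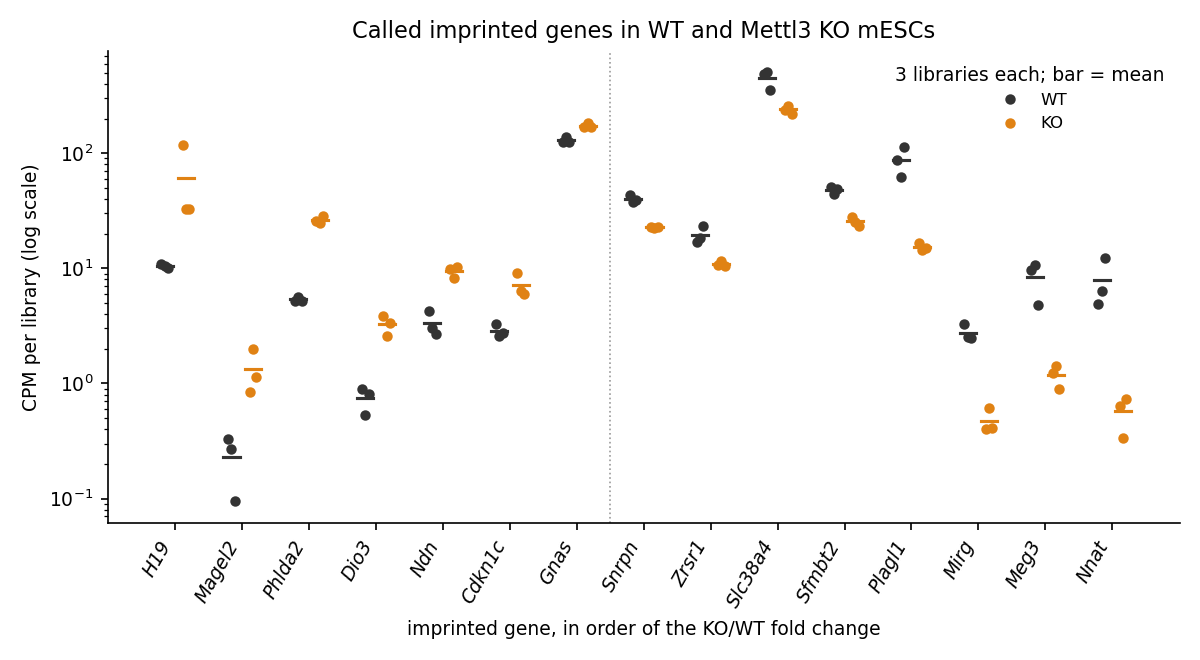
CPM of the 15 called imprinted genes in each library on a log axis, with WT in black and Mettl3 KO in orange, points for the 3 libraries and a bar for their mean. The dotted line divides the 7 genes higher in KO from the 8 lower in KO, and H19 in 1 KO library (117 CPM) stands above the other KO libraries.

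By expressed allele, 5 of 11 tested maternal genes were called (3 higher and 2 lower), and 9 of 18 tested paternal genes were called (3 higher and 6 lower). Over all genes, 29.7% were called, 17.1% higher and 12.6% lower. The median log2 fold change was 0.08 over the maternal and -0.33 over the paternal genes, and no difference between the allele groups was tested. The allele labels were not measured here and need not hold in mESCs. Ube3a, counted as maternal, is maternal in neurons, and Igf2r, also counted as maternal, is silenced by Airn in other tissues. Levels per kb of exon differed widely among the genes. Slc38a4 was the most abundant per length, at 105.7 ± 19.6 CPM per kb in WT cells (SD, n = 3). It was followed by Copg2 at 22.4 ± 2.69, Impact at 18.7 ± 2.76, Snrpn at 18.7 ± 1.36, Igf2r at 18.2 ± 4.45 and Peg3 at 14.7 ± 2.24 CPM per kb, and the ranges of mean ± SD of neighbours in this order overlapped from Copg2 to Peg3.

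**Figure D2:**
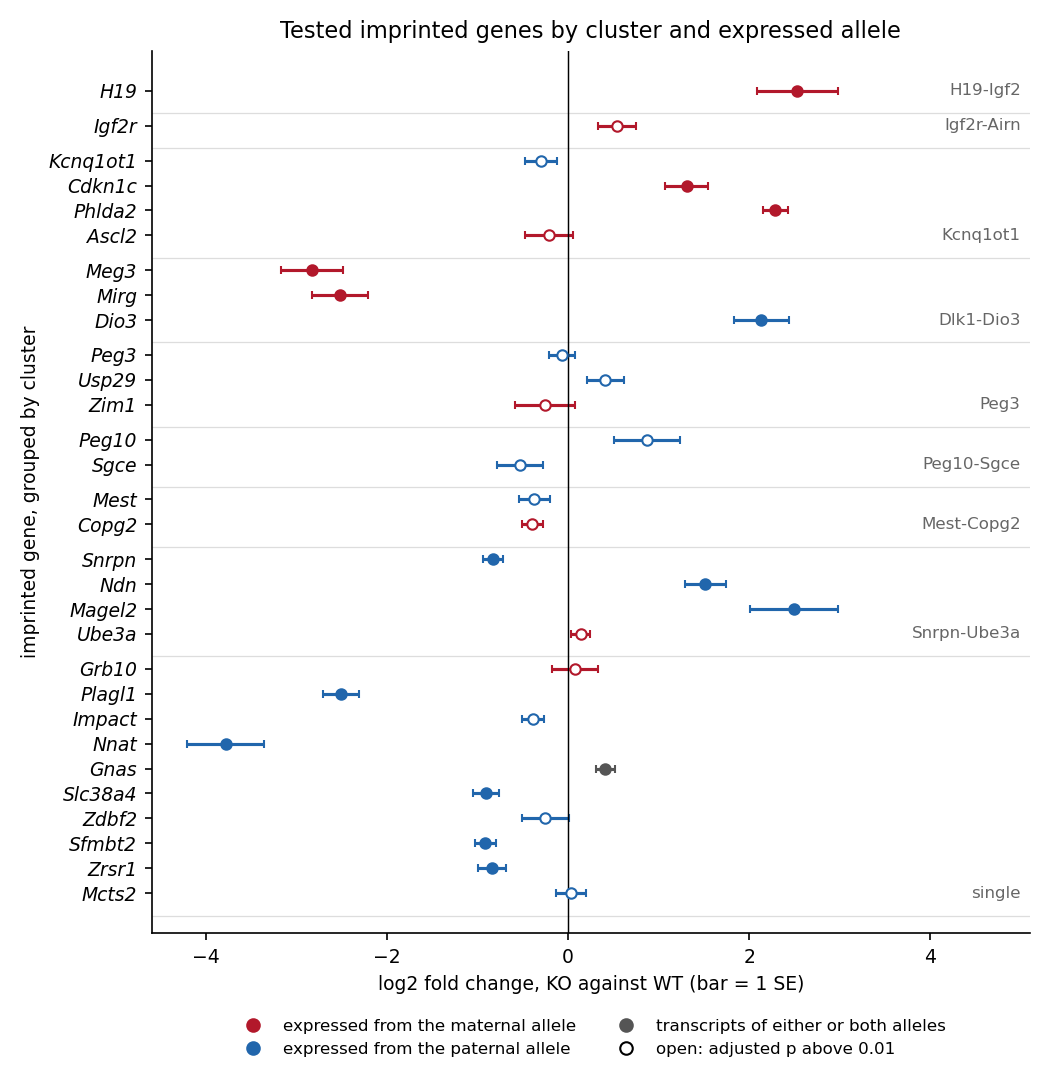
Log2 fold change of KO against WT with 1 SE for the 30 tested imprinted genes, grouped by cluster and coloured by the expressed allele, with filled points at an adjusted p of at most 0.01. Meg3 and Mirg lie far left of Dio3, and Snrpn lies left of Ndn and Magel2, so that genes of 1 cluster stand on opposite sides of 0.

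The H19-Igf2 and Kcnq1ot1 clusters share distal chromosome 7, where the maternal genes H19, Cdkn1c and Phlda2 were all higher in KO cells. H19 (chr7:142575529-142578143, minus strand), a maternal noncoding RNA that hosts a microRNA, had 11.0, 10.5 and 10.1 CPM in the WT libraries and 117, 32.8 and 32.7 CPM in the KO libraries. The groups did not overlap, and KO replicate 1 was far above the other KO libraries. The log2 fold change was 2.53 ± 0.45 (SE, adjusted p = 0.00129). Leaving out KO replicate 1 lowered it to 1.64 (adjusted p = 0.000145).

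Igf2, the paternal growth factor gene that shares its enhancers with H19, was nearly silent, with 1, 4 and 4 counts in the WT libraries and 34, 28 and 9 in the KO libraries. It did not pass the filter on low counts. Every KO library held more counts than any WT library. Igf2 passed the filter in 4 of the fits without 1 library, with log2 fold changes of 2.33 to 3.09, and was called without WT replicate 3 (adjusted p = 0.00832) or KO replicate 3 (adjusted p = 0.00186) but not without WT replicate 1 (adjusted p = 0.0303) or WT replicate 2 (adjusted p = 0.0154). A share of 62.8% of its exon bases belongs also to Gm49394, a gene model on the same strand, and reads there can be left unassigned.

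Phlda2 (chr7:143501545-143503150, minus strand), a maternal gene that limits placental growth, had 5.24, 5.60 and 5.25 CPM in WT and 26.0, 24.6 and 28.3 CPM in KO libraries. The libraries of each genotype were close together, and the log2 fold change was 2.29 ± 0.14 (adjusted p = 3.43e-06). Cdkn1c (chr7:143458339-143461050, minus strand), which encodes a maternal inhibitor of cyclin-dependent kinases, had 3.30, 2.59 and 2.74 CPM in WT and 9.11, 6.35 and 5.95 CPM in KO libraries, a log2 fold change of 1.31 ± 0.24 (adjusted p = 0.00159). Every KO library was above every WT library for both genes. The call of Cdkn1c missed the threshold without KO replicate 1 (adjusted p = 0.0101).

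Kcnq1ot1, the paternal antisense RNA of 93092 nt that silences this domain in cis, had 104, 110 and 97.3 CPM in WT and 62.5, 111 and 79.8 CPM in KO libraries. The groups overlapped and the log2 fold change was -0.30 ± 0.18 (adjusted p = 0.195). Ascl2, a maternal transcription factor of the placenta, had 6.80, 3.50 and 5.39 CPM in WT and 4.74, 3.81 and 4.99 CPM in KO libraries (log2 fold change -0.21 ± 0.27, adjusted p = 0.542).

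Of 17 tested neighbours within 250 kb of these clusters, 5 were higher and 2 lower in KO cells, beside 17.1% and 12.6% of all genes. Among the higher neighbours were the imprinted genes Slc22a18, a transporter gene (log2 fold change 1.31 ± 0.20), and Tssc4 (0.99 ± 0.16), while Cd81, a tetraspanin gene, was lower (-0.90 ± 0.12). Genes of distal chromosome 7 thus moved in both directions.

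**Figure D3:**
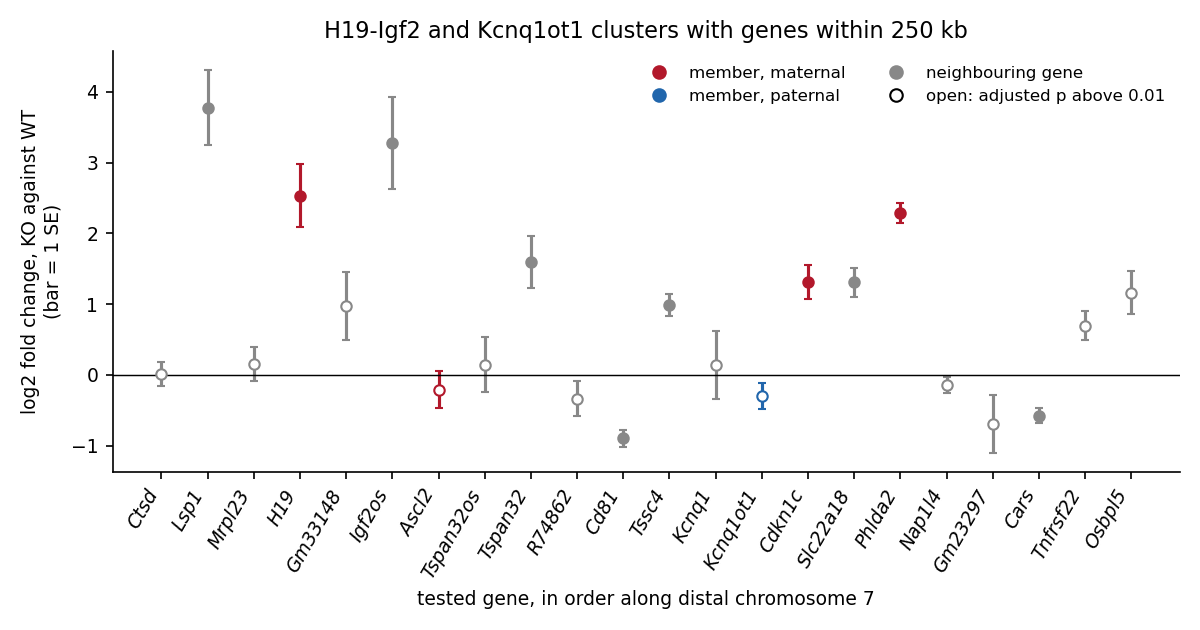
Log2 fold change of KO against WT with 1 SE for the 22 tested genes of the H19-Igf2 and Kcnq1ot1 clusters and their surroundings, in order along the chromosome but not to distance, with filled points at an adjusted p of at most 0.01. Of the 10 called genes, 8 stand above 0, and Cd81 and Cars stand below it.

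In the Dlk1-Dio3 cluster of chromosome 12, the maternal noncoding RNAs were lower and the paternal Dio3 was higher in KO cells. Meg3 (chr12:109541001-109571726, plus strand), the noncoding RNA whose expression marks an open maternal allele in mESCs, had 9.72, 10.7 and 4.77 CPM in WT and 1.23, 1.42 and 0.887 CPM in KO libraries. Its log2 fold change was -2.83 ± 0.34 (adjusted p = 0.000151). Mirg (chr12:109729764-109749460, plus strand), which hosts microRNAs, fell alongside, from 69, 66 and 52 counts in WT to 10, 18 and 11 counts in KO libraries (log2 fold change -2.52 ± 0.31, adjusted p = 0.000159).

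Dio3 (chr12:110279068-110281097, plus strand), which encodes the deiodinase that inactivates thyroid hormone, had 19, 14 and 17 counts in WT and 97, 77 and 90 counts in KO libraries. It was higher by 2.14 ± 0.30 on the log2 scale (adjusted p = 0.00037). Neither genotype overlapped the other for Meg3, Mirg or Dio3. Dlk1, a Notch-like ligand, the retrotransposon-derived Rtl1 and the noncoding RNA Rian were listed at 0 in all 6 libraries, which allows up to 0.142 CPM in the shallowest of them. That limit covers counting error only. Reads on same-strand small RNA genes within Rian can be left unassigned, but such genes share only 3.42% of its exon bases.

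The Snrpn-Ube3a cluster of chromosome 7 also held changes in both directions among its paternal genes. Ndn (chr7:62346569-62350262, plus strand), a melanoma antigen family gene known from neurons, had 4.25, 3.01 and 2.69 CPM in WT and 9.95, 8.27 and 10.2 CPM in KO libraries, a log2 fold change of 1.52 ± 0.22 (adjusted p = 0.000465). Magel2 (chr7:62377010-62381640, plus strand), of the same family, rose from 7, 7 and 2 counts in WT to 21, 59 and 31 counts in KO libraries (log2 fold change 2.49 ± 0.49, adjusted p = 0.00231). Both genes were low in WT cells, and each KO library exceeded each WT library. Magel2 passed the filter on low counts only through its KO libraries.

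Snrpn (chr7:59982495-60140219, minus strand), which encodes a protein of spliceosomal ribonucleoproteins, had 43.6, 37.9 and 39.4 CPM in WT and 22.8, 22.2 and 22.9 CPM in KO libraries. Its log2 fold change was -0.83 ± 0.11 (adjusted p = 0.000255), and 27.3% of its exon bases are shared with Snurf and another gene model on the same strand. Ube3a, a ubiquitin ligase gene that is maternal in neurons and read from both alleles elsewhere, had 168, 147 and 154 CPM in WT and 172, 164 and 179 CPM in KO libraries (log2 fold change 0.14 ± 0.10, adjusted p = 0.291). The groups overlapped for Ube3a. Among other imprinted genes of this region, Snhg14, the noncoding RNA that runs antisense to Ube3a, was lower (log2 fold change -1.33 ± 0.17), and Peg12 was higher (1.71 ± 0.22).

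Among the singly taken genes, Nnat, Plagl1, Sfmbt2, Slc38a4 and Zrsr1, all paternal, were lower in KO cells. Nnat (chr2:157560078-157562522, plus strand), a small membrane protein gene inside an intron of Blcap, had 4.91, 6.32 and 12.4 CPM in WT and 0.637, 0.338 and 0.739 CPM in KO libraries. At -3.78 ± 0.43, it had the largest log2 fold change of the 30 genes (adjusted p = 0.000102). Plagl1 (chr10:13060504-13131694, plus strand), a zinc finger transcription factor of the imprinted gene network, had 86.8, 61.9 and 112 CPM in WT and 16.5, 14.4 and 15.0 CPM in KO libraries (log2 fold change -2.51 ± 0.20, adjusted p = 1.41e-05). The WT libraries varied for both genes, yet none came near a KO library.

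Slc38a4 (chr15:96994820-97055956, minus strand), an amino acid transporter gene, had 492, 505 and 354 CPM in WT and 239, 259 and 221 CPM in KO libraries (log2 fold change -0.91 ± 0.15, adjusted p = 0.000791). Sfmbt2 (chr2:10370510-10595253, plus strand), a polycomb family gene that carries a microRNA cluster, had 50.7, 44.5 and 48.9 CPM in WT and 27.9, 25.4 and 23.2 CPM in KO libraries (-0.91 ± 0.12, adjusted p = 0.000204). Zrsr1 (chr11:22972005-22976496, plus strand), an intronless splicing factor gene within Commd1, had 16.9, 18.4 and 23.3 CPM in WT and 10.7, 11.6 and 10.5 CPM in KO libraries (-0.84 ± 0.16, adjusted p = 0.00179). Leaving out KO replicate 1 (adjusted p = 0.0113) or KO replicate 3 (adjusted p = 0.0102) lost the call of Zrsr1, and reads that match a related X-linked gene can be misplaced.

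Gnas (chr2:174284320-174346744, plus strand), which encodes a stimulatory G protein and allele-specific variants, had 125, 139 and 125 CPM in WT and 169, 182 and 167 CPM in KO libraries. It was higher in KO cells by 0.41 ± 0.10 on the log2 scale (adjusted p = 0.00745). This call was the least stable of the 15: it missed the threshold with scaling by library size alone (adjusted p = 0.0106) and in 5 of the 6 fits without 1 library (adjusted p up to 0.0373), all but that without WT replicate 2. Nespas, a noncoding RNA antisense in this locus, was lower in KO cells (-1.05 ± 0.22).

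Several abundant imprinted genes did not pass the threshold. Igf2r, the maternal receptor that takes up and clears Igf2, had 189, 198 and 122 CPM in WT and 234, 314 and 191 CPM in KO libraries (log2 fold change 0.54 ± 0.21, adjusted p = 0.0572). Under the paired fit with a replicate block, the same difference was called (0.54 ± 0.10, adjusted p = 0.000253). Airn, the paternal antisense RNA that silences Igf2r in other tissues, had 2 to 9 counts in every library and was not tested.

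Peg10, a retrotransposon-derived paternal gene needed for the placenta, had 37.0, 23.2 and 63.0 CPM in WT and 116, 60.9 and 49.1 CPM in KO libraries (0.88 ± 0.36, adjusted p = 0.0719). The groups overlapped, the block gave a call (0.90 ± 0.24, adjusted p = 0.00451), and so did the fit without WT replicate 3 (1.32, adjusted p = 0.00777). Its neighbour Sgce, the sarcoglycan epsilon gene, had 8.83, 11.8 and 7.32 CPM in WT and 8.64, 5.67 and 5.06 CPM in KO libraries (-0.53 ± 0.25, adjusted p = 0.107).

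Copg2, a coat protein gene, had 105, 130 and 108 CPM in WT and 85.0, 93.8 and 82.6 CPM in KO libraries, and was called only at the looser threshold or with the block (-0.39 ± 0.12, adjusted p = 0.018 without and 0.00213 with the block). Mest, a hydrolase family gene whose 3′ end overlaps that of Copg2 on the other strand, had 42.0, 34.8 and 58.5 CPM in WT and 34.1, 32.2 and 38.2 CPM in KO libraries (-0.37 ± 0.18, adjusted p = 0.107). Impact, a regulator of translation, had 94.3, 111 and 83.0 CPM in WT and 68.9, 77.6 and 73.7 CPM in KO libraries (-0.39 ± 0.12, adjusted p = 0.0254 without and 0.00408 with the block). The groups did not overlap for Copg2 and Impact and overlapped for Mest.

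In the Peg3 cluster, none of the 3 genes was called. Peg3, a paternal zinc finger gene, had 229, 173 and 184 CPM in WT and 218, 160 and 182 CPM in KO libraries (-0.07 ± 0.15, adjusted p = 0.732). Usp29 had 9.77, 6.66 and 6.71 CPM in WT and 11.8, 9.99 and 9.01 CPM in KO libraries (0.41 ± 0.20, adjusted p = 0.121), and Zim1 had 15 to 29 counts per library. The neighbouring imprinted zinc finger gene Zfp264 was lower in KO cells (-2.05 ± 0.37).

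Grb10, a growth factor receptor adaptor gene, had 124, 62.4 and 71.9 CPM in WT and 65.4, 108 and 98.7 CPM in KO libraries (0.08 ± 0.25, adjusted p = 0.82). Zdbf2, a zinc finger gene, had 73.4, 51.6 and 128 CPM in WT and 63.8, 69.0 and 79.1 CPM in KO libraries (-0.25 ± 0.26, adjusted p = 0.454). Mcts2, a retrogene within H13, had 10.2, 12.2 and 13.4 CPM in WT and 13.1, 10.7 and 12.9 CPM in KO libraries (0.03 ± 0.16, adjusted p = 0.878), and reads shared with its parent gene cannot be placed with certainty. The genotypes overlapped at all 3 genes.

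The genes of proteins that guard imprints were also examined, at the RNA level only. Of 18 genes listed for the upkeep or writing of imprints, all were tested and 6 were called (33.3%, near the 29.7% of all genes), with 2 higher and 4 lower in KO cells. Zfp57, which binds methylated control regions, had 3665, 5730 and 4133 counts in WT and 1938, 2571 and 2596 counts in KO libraries (log2 fold change -1.17 ± 0.13, adjusted p = 7.7e-05). The maintenance methyltransferase Dnmt1 (-0.48 ± 0.11), its partner Uhrf1 (-0.66 ± 0.13) and the polycomb methyltransferase Ezh2 (-0.84 ± 0.12) were lower as well. Zfp445, which shares the task of Zfp57 (0.50 ± 0.12), and the histone methyltransferase Setdb1 (0.61 ± 0.10) were higher. The count was 10 of 18 with the replicate block, which called 43.5% of all genes, and 3 of 18 without KO replicate 1 or without KO replicate 3. The count over all genes also changed between fits without 1 library (range given below). Neither figure is thus read as particular to these genes.

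Of 33 further imprinted genes outside the 35, 24 were tested and 10 called (41.7%, beside 29.7% of all genes), 5 higher and 5 lower. Beside those named above, Atp10a, a phospholipid flippase gene, was higher (1.76 ± 0.16) and Trappc9, a trafficking gene, was lower (-0.82 ± 0.17). Of 100 tested genes within 250 kb of an imprinted gene that were not among the 35, 33 were called (33.0%), near the share of all genes, with 17 higher and 16 lower. That count fell to 21 without WT replicate 1, 17 without KO replicate 1 and 21 without KO replicate 3. The count over all genes also changed between such fits (range given below), so the fall is not read as particular to these genes.

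In WT mESCs, 45 predicted m6A sites lay in exons of 10 imprinted genes. Peg3 and Peg10 held 11 sites each, Zdbf2 6, Igf2r and Ube3a 5 each, Ascl2 and Grb10 2 each, and Plagl1, Slc38a4 and Zrsr1 1 each. Of the 45 sites, 41 were at DRACH pentamers (91.1%, beside 92.9% of all mESC sites), and the median m6Aboost score was 0.703, beside 0.745 for all sites. By position, 24 sites lay in coding sequence, 19 in 3′ UTRs and 2 in the 5′ UTR, and 40 of the 45 were in the last exon of at least 1 annotated transcript. The matching shares over all mESC sites were not counted, so these positions cannot be called unusual or usual.

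**Figure D4:**
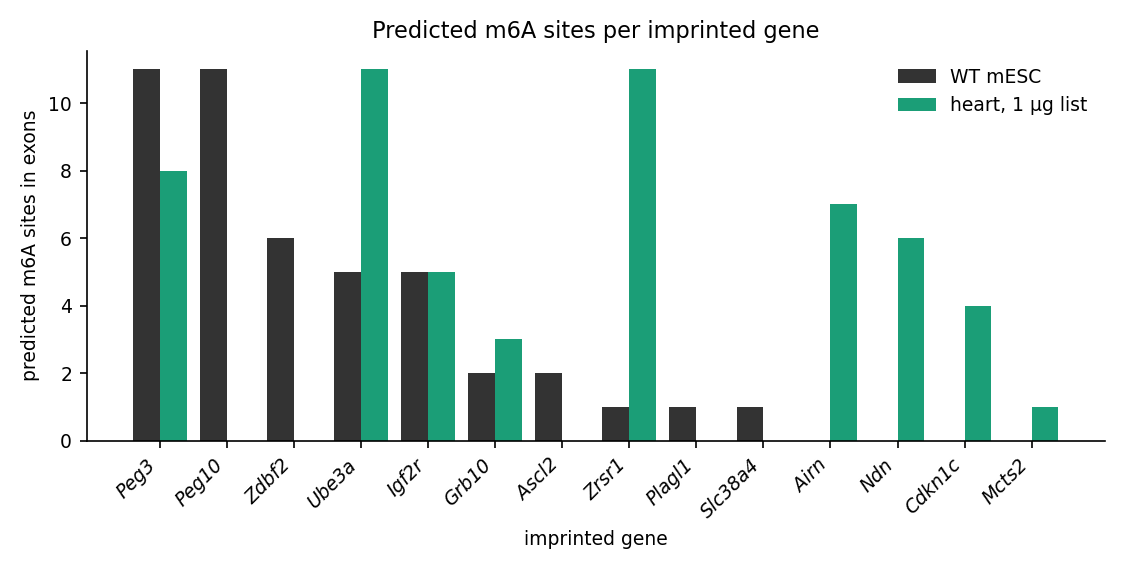
Number of predicted m6A sites in exons of each imprinted gene with a site, in WT mESCs (black bars) and in the 1 µg heart list (green bars). Peg10, Zdbf2, Ascl2, Plagl1 and Slc38a4 had sites in mESCs alone, and Airn, Ndn, Cdkn1c and Mcts2 in heart alone. Peg3, Ube3a, Igf2r, Grb10 and Zrsr1 had sites in both.

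Peg3 and Grb10 held the highest-scoring sites. Grb10 site a scored 0.979 and site b 0.963, above at least 99.0% of the mESC list, 160 and 101 nt past the stop codon. Peg3 site c scored 0.970, 199 nt past its stop codon, in a last exon of 7840 nt that carried all 11 Peg3 sites. All 11 Peg10 sites likewise lay in a last exon of at least 1 transcript, of up to 6394 nt (1 of them in exon 2 of the transcript with the longest coding sequence), and all 6 Zdbf2 sites in one of 11937 nt. Ube3a differed, with 4 of its 5 sites outside the last exon and 2 of them in the 5′ UTR.

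**Figure D5:**
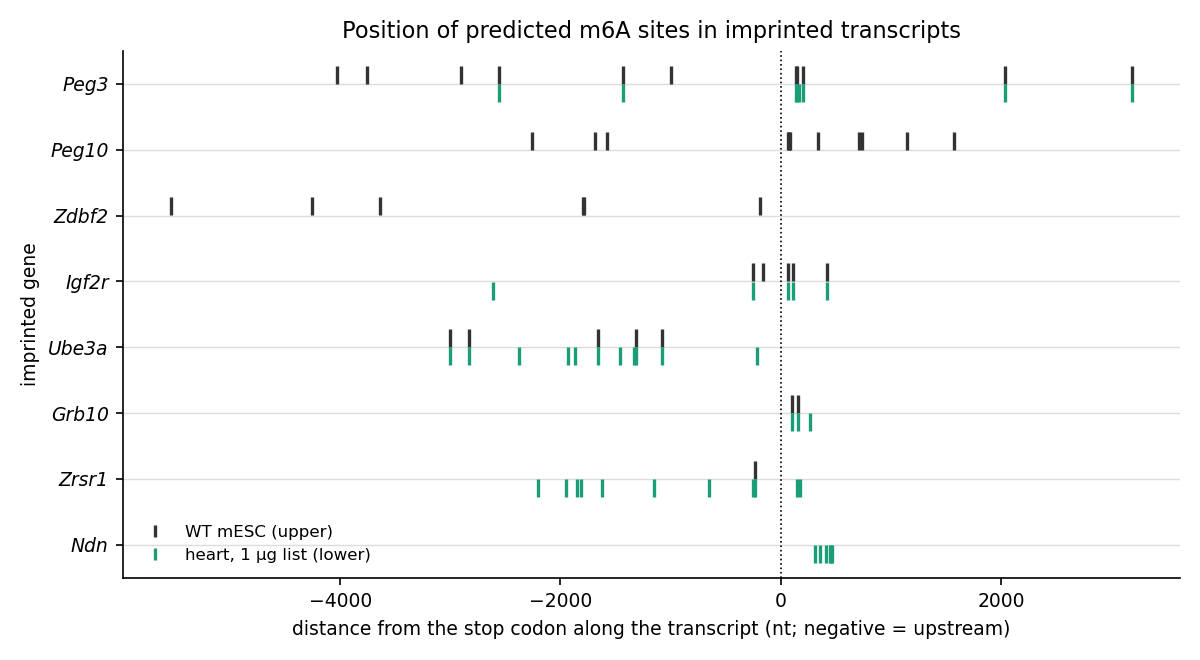
Position of the predicted m6A sites of 8 imprinted genes along the transcript with the longest coding sequence, in nt from the stop codon, with mESC sites as upper black ticks and heart sites as lower green ticks. Sites of Grb10 and Ndn lie just past the stop codon, those of Zdbf2 lie before it, and those of Peg3 span both sides.

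Sites are found more easily in abundant transcripts, so the genes were set beside all genes of like level in WT mESCs. In the highest quartile of tested genes by CPM, 7 of 11 imprinted genes had a site (63.6%), beside 80.5% of all genes. In the next quartile, 2 of 5 had one (40.0%), beside 64.1%, and in the quartile below, 1 of 11 had one (9.09%), beside 22.4%. In the highest quartile by CPM, the imprinted genes without a site were Gnas, Copg2, Kcnq1ot1 and Impact. The CPM of Kcnq1ot1 is spread over 93092 nt of exon. Per kb it had only 1.115 CPM in WT cells, beside 22.4 for Copg2, 18.7 for Impact and 11.6 for Gnas. Snrpn (18.7 CPM per kb) and Mest (11.4), in the next quartile, also had no site.

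Of the 10 genes with mESC sites, 3 were called in KO cells (30.0%, beside 29.7% of all genes), and all 3 (Plagl1, Slc38a4 and Zrsr1) were lower and held 1 site each. The 7 genes with 2 or more sites gave no call in edgeR's quasi-likelihood test, and 2 (Igf2r and Peg10, both higher) with the replicate block. Of the 20 tested genes without a site, 12 were called, 7 higher and 5 lower. The median log2 fold change was -0.14 over the genes with sites and -0.28 over those without, and the difference between these groups was not tested.

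In heart, the 1 µg list placed 56 sites in exons of 9 imprinted genes, at DRACH pentamers in 54. Ube3a and Zrsr1 held 11 sites each, Peg3 8, Airn 7, Ndn 6, Igf2r 5, Cdkn1c 4, Grb10 3 and Mcts2 1. Of 8 heart markers, none with a site in mESCs, the 1 µg list carried sites in Ttn (195), Ryr2 (23), Tnnt2 (2) and Myh6 (1) and none in Actc1, Myl2, Tnni3 and Nppa. The heart lists gave no expression values, so a gene without a site there may be lowly expressed or unmethylated, and these cannot be told apart.

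Airn held the most heart sites once introns were counted. In all, 60 heart sites lay on its strand within its 118826 nt, all at DRACH pentamers, from 27683 to 86717 nt past its start, and 53 of them were outside the annotated exons of Airn. Airn is known as a largely unspliced RNA. Only 4 of the 60 lay opposite Igf2r, and 2 fell in an exon of another gene on the same strand. The mESC list held none. Airn had 2, 4 and 5 counts in the WT mESC libraries, but these cover only its 3597 nt of annotated exon. They do not measure unspliced Airn. No other imprinted gene had an intronic site in the mESC or the 1 µg heart list.

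The 5 genes with sites in both sources were Igf2r, Peg3, Ube3a, Grb10 and Zrsr1. Of their 24 mESC sites, 19 (79.2%) were at the same position in heart, and these were 50.0% of their 38 heart sites. Over all 5367 genes with sites in both lists, the shares were 68.9% and 51.4%. All 5 mESC sites of Ube3a, 4 of 5 in Igf2r, 7 of 11 in Peg3, both in Grb10 and the single one in Zrsr1 recurred in heart. The Grb10 sites stood at the 96.0th percentile of heart scores, whereas Peg3 site c was at the 0.0819th percentile.

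With less heart RNA, the sites dwindled. The input titled 300 gave 7 exonic sites in 6 imprinted genes (2 in Grb10 and 1 each in Igf2r, Airn, Cdkn1c, Ube3a and Gnas), and both Grb10 positions were those of sites a and b above. The input titled 100 gave a single site, in Gnas, and the input titled 50 gave none among 248 sites. The Gnas position (chr2:174330320-174330320, plus strand), in an exon of 5 annotated Gnas transcripts, was the same in the 300 and 100 inputs and absent from the 1 µg list.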

How the data were processed

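The authors mapped the RNA-seq reads with STAR to GRCm38.p6 and counted them by strand with HTSeq into GENCODE M23. The deposited values are raw counts per gene. For miCLIP2, the deposited site lists carry a score: the m6Aboost score in mESCs, and in heart a score of unstated scale, used only as a rank within its list. The HEK293T list was not used here. RNA-seq counts were tested over all 15731 genes passing filterByExpr with edgeR (version 4.0.16; TMM scaling, quasi-likelihood test, Benjamini-Hochberg adjustment, adjusted p of at most 0.01). CPM refer to TMM-scaled library sizes, and p-values measure only the spread between these samples. The test was tried on simulated counts. Coordinates, exon lengths and regions came from GENCODE M21, which held 98.1% of the counted genes, and sequences from the RefSeq GRCm38 genome. A site belonged to a gene when it lay in 1 of its exons on the same strand.

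Members and lists were chosen with earlier results of these data known. Described singly were members that were called or averaged at least 100 counts, and in other lists the called genes with at least 100 counts. Members below that mean (Igf2, Airn, Zim1 and those with 0 counts) are given to account for the whole list. Cars, Peg13 and Tet1 were named after their values were seen, and the markers named come from lists of 8 pluripotency, 12 fibroblast and 8 heart genes. Same-numbered WT and KO libraries deviated together (correlations of 0.122, 0.464 and 0.303 over genes), so the replicate number was also fitted as a block. Of the unlike-numbered pairs, WT replicate 3 with KO replicate 1 gave 0.110, and the others lay from -0.342 to -0.00308. Deviations were taken from the mean of each genotype, so positive pairs force negative ones. The negative values are no separate support for the pairing. The pairing of replicate 1 is thus not distinct. Alternatives were DESeq2 (version 1.42.0) and its size factors, library size alone, no filter, at least 10 counts in every library, a threshold of 0.05, and leaving out each library.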

Additional observations from a re-analysis of the deposited data

How the results depend on the processing

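The 15 calls among imprinted genes numbered 12 to 19 over the alternatives, and every lower call but Zrsr1 passed the threshold in each fit without 1 library. With the replicate block, in which same-numbered libraries were paired, 19 imprinted, 10 imprint maintenance and 6837 of all genes were called, and the block changed no other call among the imprinted genes than those of Igf2r, Peg10, Copg2 and Impact. All genes called numbered 7336 at an adjusted p of 0.05 and 2761 to 5412 without 1 library, where the imprint maintenance genes gave 3 to 6 and the genes near imprinted genes 17 to 36 calls, and 50 of the latter were called within 500 kb, where more genes were tested. Without TMM, on library sizes alone, the median of all genes moved from -0.02 to 0.08 (log2) and the share of higher genes among all calls from 57.5% to 71.0%, and Peg3 changed sign (0.0381) while Gnas lost its call. Without 1 library, 5 uncalled genes changed sign: Ascl2 (-0.443 to 0.0211), Peg3 (-0.188 to 0.0602), Grb10 (-0.119 to 0.431), Zdbf2 (-0.518 to 0.177) and Mcts2 (-0.0689 to 0.132). DESeq2 called 16 imprinted genes, Igf2 added (adjusted p = 0.00269). The edgeR fit with no filter on low counts also called Igf2 (adjusted p = 2.61e-06), Igf2r (7.42e-05) and Peg10 (1.98e-10). Counting introns gave 109 heart sites in place of 56, the added ones all in Airn. DRACH sites alone numbered 41 in mESCs and 54 in heart. The 19 shared positions were the same under each alternative run, which is no sign of robustness. All of them are at DRACH pentamers, in exons and in no exon of another gene. The stricter settings thus had nothing to remove. Genes near 0 counts, such as Dlk1, Rtl1 and Rian, allow no statement beyond their floor, and the heart lists rest on 1 library each.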

Other observations

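Peg13, a paternal noncoding RNA outside the 35 genes, carried 25 predicted sites in the 1 µg heart list, 10 in the list titled 300 and 2 in the list titled 100, and none in mESCs, where it had 20 to 32 counts per library. Of the 18 imprint maintenance genes, Tet1, a 5-methylcytosine dioxygenase gene, held the most mESC sites (18) and no heart site, and Setdb1, which was higher in KO cells, held 10 mESC sites.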
